A study of Mus musculus with 10 samples.

Results

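In resting T cells a set of genes holds growth signalling back, and 7 of them are described here: Foxo1, Foxo3, Pik3ip1, Ddit4, Sesn1, Txnip and Tsc22d3. They were chosen by name as quiescence and nutrient-sensing genes, with their changes after IL-2 on these same arrays already known, so those changes are given as a description with no test. They are 7 of 11939 mouse genes kept, each read by its brightest probe set (a group of short probes that together measure a transcript) annotated to that gene alone. All 7 passed the filter, which asked that a gene reach the median of all probe sets on at least 1 array.

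RNA of sorted CD4 T cells was measured on 10 Affymetrix arrays, 1 per group, so no group has a replicate. All mice were females of 6 to 8 weeks, and lymph node and spleen cells were pooled. In Foxp3(gfp/gfp) mice, backcross 8 to 10 from 129/Sv to C57BL/6, both Foxp3 alleles make a fusion of green fluorescent protein (GFP) and Foxp3, the transcription factor of regulatory T cells. They gave the GFP+ cells (GFPfoxp3), the GFP- CD25+ cells (CD25pos) and the GFP- CD25- cells (CD25neg), all CD4+. Heterozygous Foxp3(gfpko/wt) females, backcross 5, gave GFP+ cells in which the active X chromosome carries GFP in place of Foxp3 (GFPko); such mice also hold normal regulatory T cells. GFPfoxp3, GFPko and CD25pos cells were also sorted from mice given IL-2, a cytokine that sustains regulatory T cells, as 4 injections of 50 ng/g within 24 h, with isolation 30 min after the last. Whether the untreated mice received the vehicle is not given in their labels. The other 3 arrays hold CD25+ CD4+ cells of C57BL/6 mice, stimulated with anti-CD3 and anti-CD28 (100 ng/ml each) and IL-2 (100 U/ml) and transduced with the MigR1 retrovirus, empty, with PDE3B (a phosphodiesterase that breaks down cyclic AMP) or with its H801A mutant. They were transferred together with CD25- CD4+ Ly5.1+ cells of B6.SJL mice carrying the same vector into recipients lacking T cell receptor alpha, and were recovered after 3 weeks as GFP+ GITR+ CD4+ Ly5.1- cells.

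FOXO1 and FOXO3 are forkhead transcription factors that act in the nucleus while PI3K and AKT signalling is low and are exported when AKT phosphorylates them. IL-2 receptor signalling can feed into PI3K, AKT and mTORC1, the kinase complex that drives protein synthesis and growth. Several FOXO targets are themselves brakes on that pathway, on nutrient uptake or on division.

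Promoter windows of these genes were read for the motifs through which such control is usually described. RefSeq windows (GRCm38.p6, 250 bases before to 50 after a start site) matched 7 of 7 members, with 10 windows in all. The forkhead core GTAAACA, searched on both strands, occurred in 2 of the 10 windows, those of Txnip and Sesn1, against 3.65% of all 32851 windows. Txnip is shown because it holds that core, at -121 to -115 from the start site, and a repeat of CACGAG separated by 5 bases, at -85 to -69. Both are in capitals. Ddit4 is shown because its level differed most after IL-2 while the window held none of the motifs searched, and of Sesn1 only the stretch around the core is shown, 23 to 29 bases after the start, with the core on the other strand in capitals.
Txnip, chr3:96557707-96557956, plus strand: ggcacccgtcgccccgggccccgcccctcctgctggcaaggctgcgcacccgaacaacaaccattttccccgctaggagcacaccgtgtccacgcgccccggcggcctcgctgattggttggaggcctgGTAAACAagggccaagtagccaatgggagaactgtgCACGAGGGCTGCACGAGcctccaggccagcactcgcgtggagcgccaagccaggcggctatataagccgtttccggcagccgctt
Ddit4, chr10:59951771-59952020, minus strand: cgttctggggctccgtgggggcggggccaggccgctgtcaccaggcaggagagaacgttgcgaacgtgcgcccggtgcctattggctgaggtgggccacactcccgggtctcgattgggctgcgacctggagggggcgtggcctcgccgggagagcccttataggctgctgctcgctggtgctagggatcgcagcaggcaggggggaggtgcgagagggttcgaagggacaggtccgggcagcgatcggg
Sesn1, chr10:41810586-41810612, plus strand: aaccttctacTGTTTACcagccttttg
The CACGAG repeat was looked for after the Txnip sequence had been read, and it was in 1 of all windows (0.00304%), that of Txnip. Such repeats are known from the carbohydrate response element, through which MLX and its partners switch on TXNIP when sugar phosphates are abundant. The E-box CACGTG (7.15% of windows) and the cyclic AMP response element TGACGTCA (1.79%) were in none of the 10 windows. The glucocorticoid response element was in 1, that of Txnip, against 0.475% of all windows. These matches describe letters in the windows and locate no bound factor.

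After IL-2 all 7 genes were lower in GFPko cells and in GFPfoxp3 cells, but in CD25pos cells 5 of them were higher. Of all genes 51.4% were lower in GFPko and 50% in GFPfoxp3, and 11.5% were lower in both but higher in CD25pos. The falls were largest in GFPko for all 7, which 35.3% of all genes also show. The median change of the 7 on the log2 scale was -1.14 in GFPko, -0.34 in GFPfoxp3 and 0.32 in CD25pos, beside -0.011, -6.2e-05 and -0.0057 over all genes. In GFPko 5 of the 7 were at least 2-fold lower, Ddit4, Tsc22d3, Foxo1, Pik3ip1 and Sesn1, where 2.00% of all genes were. None was at least 2-fold lower in GFPfoxp3 (0.218% of all genes) or CD25pos (0.352%). Ddit4 in CD25pos cells was the only one at least 2-fold higher, against 0.997% of all genes there, 2.91% in GFPko and 1.73% in GFPfoxp3. Because the genes were chosen with these changes known, nothing is read from those counts.

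**Figure D1:**
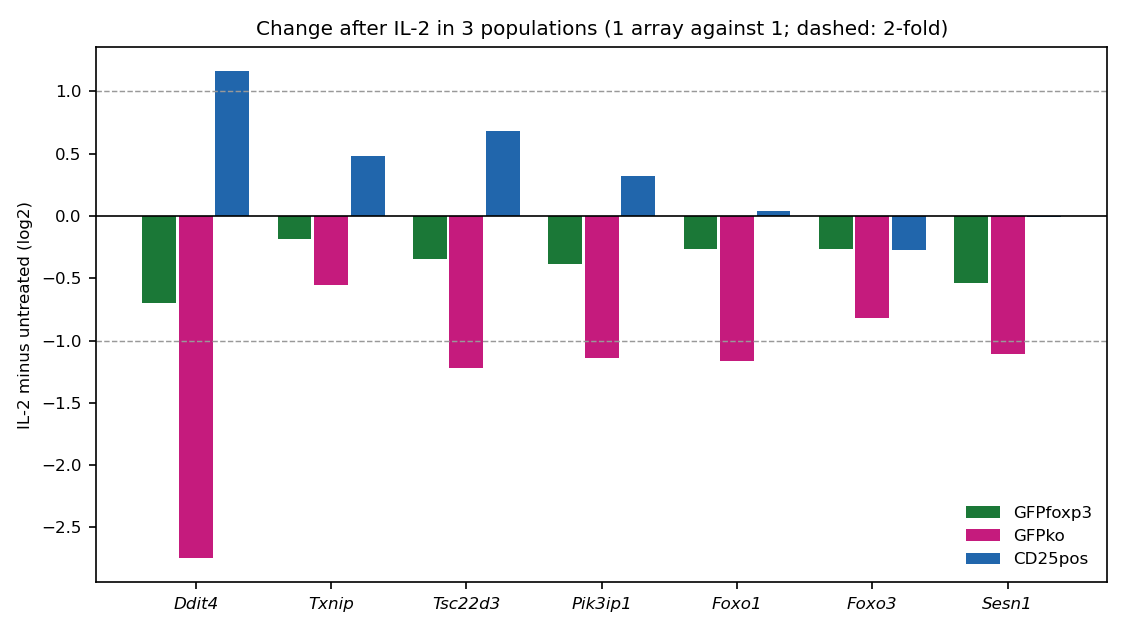
Change in log2 expression after IL-2 (IL-2 array minus untreated array, vertical axis) for each of the 7 genes in GFPfoxp3 (green), GFPko (magenta) and CD25pos (blue) cells, 1 array against 1, with dashed lines at a 2-fold change. Every GFPko bar points down and reaches -2.75 for Ddit4, while the CD25pos bars of Ddit4, Tsc22d3, Txnip and Pik3ip1 point up.

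Of the transcription factors, Foxo1, which keeps naive T cells in circulation and supports regulatory T cell function, stood at 11.33 in CD25neg, 10.79 in CD25pos, 11.20 in GFPko and 11.24 in GFPfoxp3 cells. After IL-2 it was 10.83 in CD25pos, 10.04 in GFPko and 10.97 in GFPfoxp3. In the transduced cells the empty vector array read 10.66, the one labelled PDE3B 10.77 and the mutant 10.87. The GFPko array after IL-2 was thus the lowest of the 10, and the others lay between 10.66 and 11.33. Its changes were -1.16 in GFPko (2.24-fold lower), -0.27 in GFPfoxp3 and 0.037 in CD25pos. The size of the fall in GFPko depended on the probe set: the other 2 that passed the filter gave -0.41 and -0.43. On both of those a vector array was the lowest of the 10.

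Foxo3, which shares most of its DNA targets with Foxo1, stood at 8.73 in CD25neg, 9.03 in CD25pos, 9.10 in GFPko and 9.01 in GFPfoxp3. After IL-2 the values were 8.76 in CD25pos, 8.28 in GFPko and 8.74 in GFPfoxp3. On the vector arrays they were 8.74, 9.12 and 9.14, for empty, PDE3B and mutant in that order. Foxo3 spanned only 0.86 over the 10 arrays, the narrowest range of the 7 genes, and was again lowest in GFPko after IL-2. It is 1 of 2 members, with Sesn1, that were lower after IL-2 in all 3 populations (-0.82 in GFPko, -0.26 in GFPfoxp3, -0.27 in CD25pos), a pattern that 18.2% of all genes share. The Sesn1 value in CD25pos was so near 0 that its sign turned when arrays were centred. The other usable Foxo3 probe set gave -0.21 in GFPko, and on it the vector arrays were the lowest.

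Pik3ip1 encodes a membrane protein that binds the PI3K catalytic subunit and lowers its activity. Its levels were 10.56 in CD25neg, 10.10 in CD25pos, 10.46 in GFPko and 9.62 in GFPfoxp3. With IL-2 they were 10.42 in CD25pos, 9.32 in GFPko and 9.23 in GFPfoxp3, and on the vector arrays 6.09 (empty), 6.59 (PDE3B) and 6.05 (mutant). GFPfoxp3 was thus the lowest untreated population, and after IL-2 the GFPko array came down to the GFPfoxp3 level. The changes were -1.14 in GFPko (2.20-fold lower), -0.39 in GFPfoxp3 and 0.32 in CD25pos. A second probe set gave -1.07 in GFPko, -0.039 in GFPfoxp3 and 0.66 in CD25pos.

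Ddit4, also called REDD1, is a stress-induced brake that restrains mTORC1 through the TSC complex. It stood at 11.25 in CD25neg, 10.67 in CD25pos, 12.23 in GFPko and 11.63 in GFPfoxp3. After IL-2 it was 11.84 in CD25pos, 9.48 in GFPko and 10.93 in GFPfoxp3. The transduced cells gave 11.00, 10.68 and 10.87 for empty vector, PDE3B and mutant. Ddit4 was therefore highest of all 10 arrays in untreated GFPko cells and lowest of all 10 in the same population after IL-2. It was 6.71-fold lower there (-2.75), rank 3 among the decreases of 11939 genes, and 1.63-fold lower in GFPfoxp3 (-0.70). In CD25pos cells it was 2.24-fold higher (1.16), rank 83 among rises. The gap between those changes, -3.91 for GFPko minus CD25pos, ranked 1 of all genes. Ddit4 was chosen with these changes known, so its ranks are a description only. A single probe set reads Ddit4, so no second one stands beside these values.

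Sesn1 encodes sestrin 1, which holds mTORC1 back when leucine is scarce and is induced by p53 and FOXO factors. Its levels were 11.34 in CD25neg, 11.14 in CD25pos, 11.33 in GFPko and 12.26 in GFPfoxp3. After IL-2 they were 11.13 in CD25pos, 10.22 in GFPko and 11.73 in GFPfoxp3, and the vector arrays read 11.03, 11.06 and 11.17 (empty, PDE3B, mutant). By the brightest probe set both GFPfoxp3 arrays were above the other 8, and GFPko after IL-2 was below them all. The changes were -1.11 in GFPko (2.16-fold lower), -0.54 in GFPfoxp3 and -0.0074 in CD25pos. All 4 Sesn1 probe sets were lower in GFPko, at -1.60 to -0.74. In GFPfoxp3 they did not share a sign, with 1 of the 4 at 0.038. The second brightest read 10.87 and 10.51 in GFPfoxp3 without and with IL-2, beside 11.02 in CD25neg and 10.44 to 10.75 on the vector arrays.

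Txnip binds thioredoxin and lowers glucose uptake by removing glucose transporters from the cell surface. It stood at 12.35 in CD25neg, 12.08 in CD25pos, 12.56 in GFPko and 12.99 in GFPfoxp3. After IL-2 it was 12.56 in CD25pos, 12.00 in GFPko and 12.81 in GFPfoxp3, and on the vector arrays 11.02, 10.58 and 10.89 in the same order as before. Both GFPfoxp3 arrays were above all others and the 3 vector arrays below all others. Txnip differed least of the 7 in GFPko (-0.55) and in GFPfoxp3 (-0.18), and was 0.48 higher in CD25pos.

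Tsc22d3 encodes GILZ, a glucocorticoid-induced protein that dampens T cell activation and is also a FOXO3 target. Its levels were 11.25 in CD25neg, 10.17 in CD25pos, 11.37 in GFPko and 11.02 in GFPfoxp3. After IL-2 they were 10.85 in CD25pos, 10.14 in GFPko and 10.67 in GFPfoxp3, and with the vectors 7.17, 7.02 and 7.29. Among the sorted arrays the untreated CD25pos and the IL-2 treated GFPko values were the lowest and nearly equal. Tsc22d3 was 2.34-fold lower after IL-2 in GFPko (-1.22) and 1.61-fold higher in CD25pos (0.68), with -0.34 in GFPfoxp3. Its other usable probe sets gave -1.07 and -0.92 in GFPko, 0.39 and 0.25 in CD25pos.

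**Figure D2:**
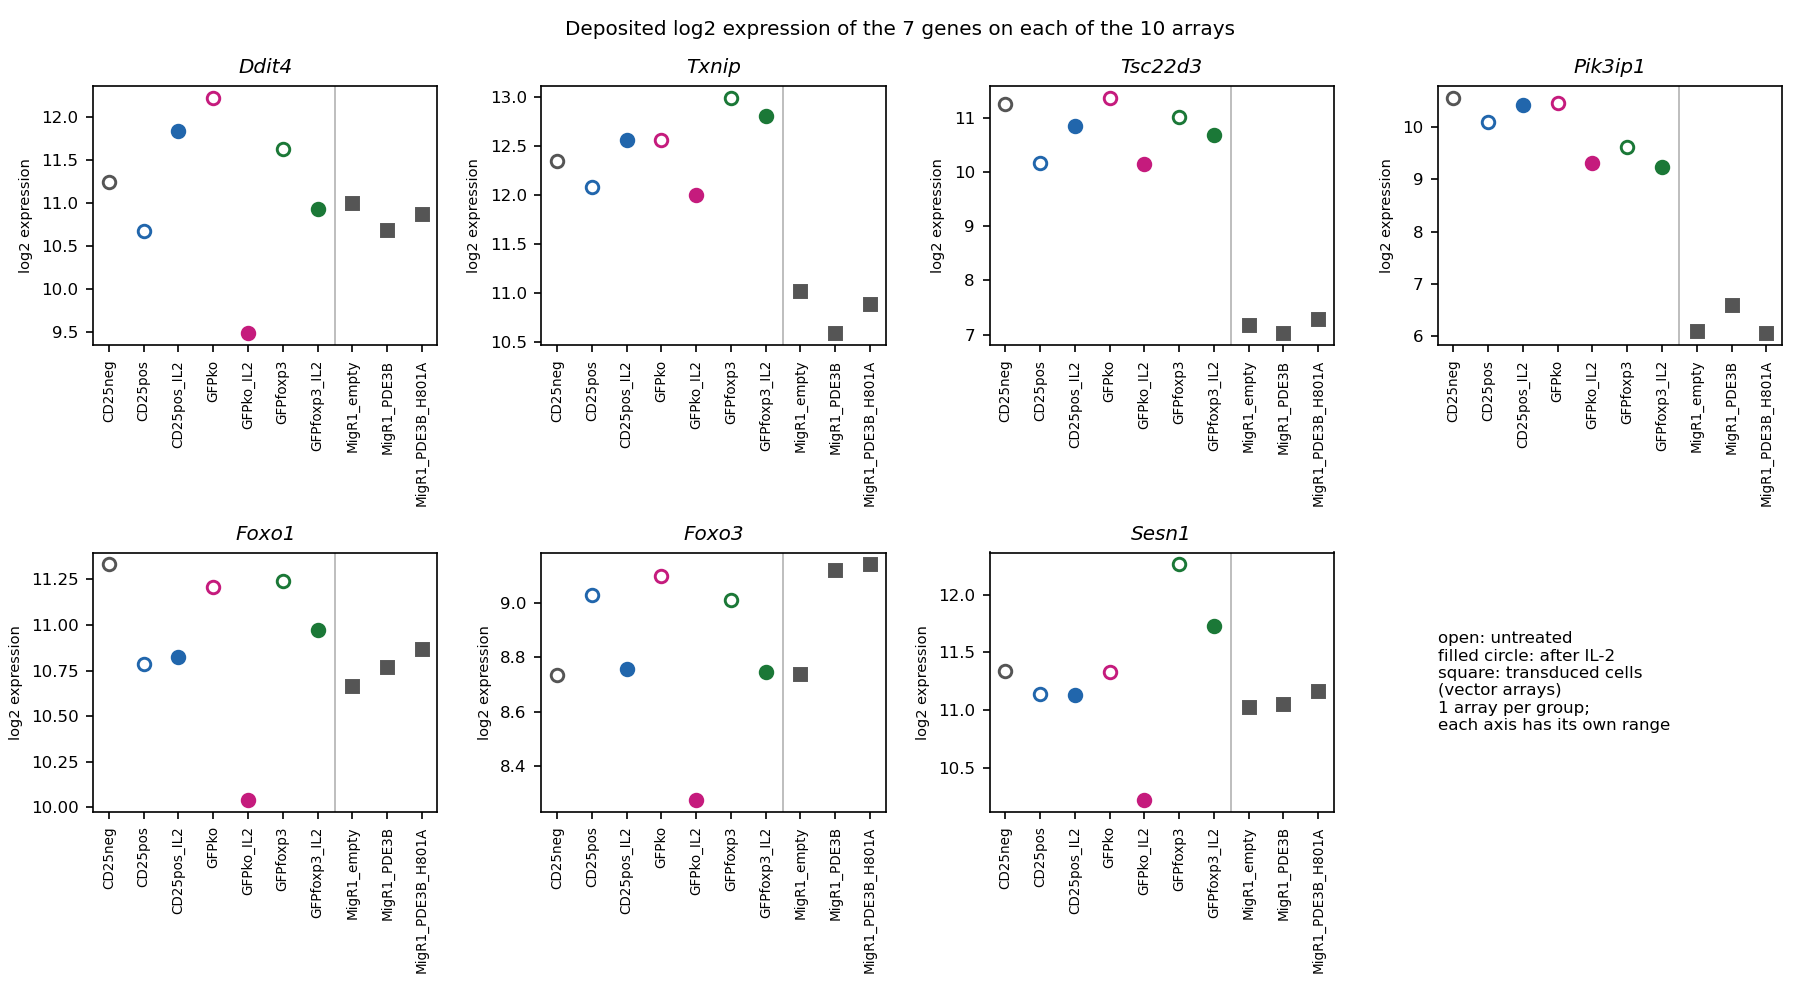
Deposited log2 expression (vertical axis, its own range in each panel) of the 7 genes on each of the 10 arrays, open circles for untreated sorted cells, filled circles after IL-2 and squares for the transduced cells. The filled GFPko point is the lowest of the sorted cells for 6 of the 7 genes, and the squares of Tsc22d3 and Pik3ip1 lie far below every circle.

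The array of IL-2 treated GFPko cells was the lowest of the 7 sorted arrays for 6 of the 7 genes, all but Pik3ip1. It was so for 15.0% of all genes. By the brightest probe sets it was the lowest of all 10 for Ddit4, Foxo1, Foxo3 and Sesn1. On the other usable probe sets of Foxo1 and Foxo3 a vector array was lower. By the brightest probe sets, untreated GFPko was above CD25pos for 7 of 7 genes, and after IL-2 it was below for 7 of 7. That crossing occurred in 22.5% of all genes. The other usable Foxo3 probe set did not cross. There GFPko was below CD25pos both untreated (6.89 against 7.16) and after IL-2 (6.68 against 6.95). The genes were chosen with their IL-2 changes known, so nothing is read from the crossing. With 1 array per group no change can be set against a spread between animals, and neighbours in the order of levels cannot be separated. Lower level in a sorted population can mean fewer cells with the transcript or less of it per cell, and these cannot be told apart in bulk RNA.

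Across probe sets the direction in GFPko held. The 7 genes have 20 probe sets annotated to them alone, of which 16 passed the filter and 4 were below the array median on all arrays. In GFPko all 16 were lower after IL-2, from -2.75 to -0.21 with a median of -1.07. In GFPfoxp3 15 of 16 were lower, from -0.70 to 0.038, and in CD25pos 12 of 16 were higher, from -0.27 to 1.16. Probe sets of a gene share its transcripts and the same RNA, so they do not replicate the treatment. The brightest ones of Foxo1 and Sesn1 are of the _s_at class, which may cross-match transcripts of other genes. Those of Tsc22d3 and Foxo3 are of the _a_at class, for several transcripts of the same gene. The setting below without probe sets that may cross-match left out both classes.

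**Figure D3:**
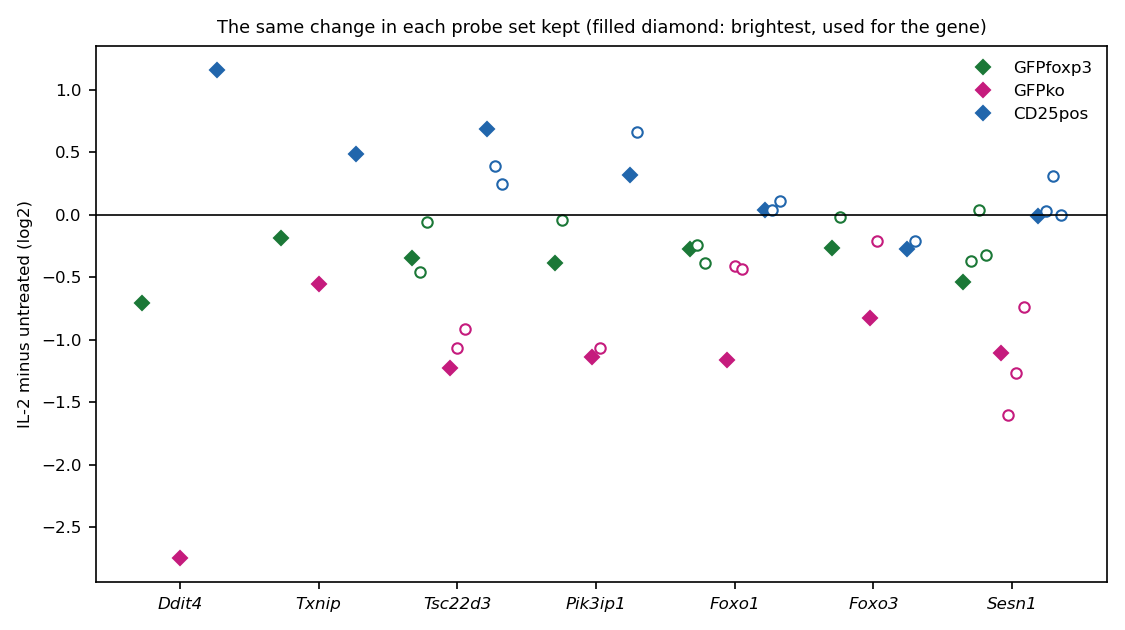
IL-2 change (log2, IL-2 array minus untreated array) of each of the 16 usable probe sets, by gene and population, with a filled diamond for the brightest probe set, which stands for the gene. All magenta GFPko points lie below 0, and those of Sesn1 (-1.60 to -0.74) and Foxo1 (-1.16 to -0.41) spread widest between probe sets.

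Values of the arrays as a whole touch this comparison. The 3' minus 5' signal of Actb, a gauge of how far RNA was shortened, was lower after IL-2 in each population, 3.69 and then 2.76 in GFPko, 3.80 and 2.86 in CD25pos and 3.07 and 2.70 in GFPfoxp3. What part this has in the changes of the 7 genes was not tested. T cell markers (4 of 5 measured) averaged 11.49 to 11.96 on the sorted arrays. Myeloid markers (6 of 6) averaged 2.45 to 2.99, near the array medians of 3.04 to 3.22, but Lyz2 was 5.71 in GFPko after IL-2 against 3.36 before. Its part in the result was not tested. Markers of CD8 and natural killer cells (7 of 8) averaged 6.19 and 6.13 on the CD25pos arrays without and with IL-2, 5.11 in CD25neg, and 3.69 to 4.09 in the GFP+ populations. Klrd1 among them read 3.04 in untreated and 4.57 in treated GFPko cells. Il2ra, the IL-2 receptor alpha chain (CD25), went from 9.58 to 11.28 in GFPko, 11.11 to 11.56 in GFPfoxp3 and 7.91 to 7.90 in CD25pos. Foxp3 itself read 2.45 in CD25neg, 3.90 and 2.85 in CD25pos, 8.33 and 9.39 in GFPko, 10.86 on both GFPfoxp3 arrays and 11.26 to 11.52 in the transduced cells. Where its probes lie relative to the inserted GFP is not known here, so the GFPko values do not check the allele.

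The populations were then compared for what IL-2 does not decide, in an additive limma fit with a term for IL-2 over the 6 arrays that come in untreated and treated pairs. GFPko cells came from heterozygous mice of backcross 5 and the other populations from mice of backcross 8 to 10. Strain background and host thus cannot be told apart from population in comparisons with GFPko. None of the 7 genes differed between populations at an adjusted p under 0.05 in any of the 3 comparisons (limma, Benjamini-Hochberg over all genes). At an unadjusted p under 0.05, Sesn1 alone differed, in both comparisons with GFPfoxp3. That is 1 of 7 where 26.0% (against GFPko) and 25.6% (against CD25pos) of all genes did, and 0 of 7 where 20.3% did between GFPko and CD25pos. Of all genes, GFPfoxp3 had 5.44% higher and 2.03% lower against GFPko, and 5.28% higher and 3.45% lower against CD25pos. GFPko had 1.25% higher and 2.24% lower against CD25pos. The IL-2 term called 0.235% of genes higher and 0 lower, where 480 were lower at an unadjusted p under 0.05. With 2 residual degrees of freedom, which are the disagreement of the populations about IL-2, genes that reacted differently to IL-2 carry wide errors, Ddit4 most of all. The 7 genes were chosen with such changes known, so the lack of calls among them says little about the populations.

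Arrays of the populations did not overlap for 2 of the 7 genes between GFPfoxp3 and GFPko (56.0% of all genes), for 4 between GFPfoxp3 and CD25pos (64.5%) and for 0 between GFPko and CD25pos (42.8%), so lack of overlap was common.

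Sesn1 came closest, at 1.22 ± 0.284 (SE, log2) higher in GFPfoxp3 than in GFPko, or 2.33-fold (limma adjusted p = 0.0858). The untreated pair differed by 0.93 and the IL-2 pair by 1.51, and the groups did not overlap. On the second brightest Sesn1 probe set they did, with GFPko at 10.70 untreated and GFPfoxp3 at 10.51 after IL-2. The other usable Sesn1 probe sets showed no overlap. Against CD25pos the brightest was 0.86 ± 0.284 higher (limma adjusted p = 0.162), without overlap. GFPko minus CD25pos gave -0.36 (adjusted p = 0.561), with pairs of 0.19 and -0.91.

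Txnip likewise lay above in both GFPfoxp3 arrays, by 0.62 ± 0.273 over GFPko (limma adjusted p = 0.257) and 0.58 over CD25pos (adjusted p = 0.291), with no overlap in either comparison. Pik3ip1 went the other way, at -0.84 ± 0.367 in GFPfoxp3 relative to CD25pos (adjusted p = 0.261), with -0.49 untreated and -1.19 after IL-2. Against GFPko it was -0.47 (adjusted p = 0.492), with overlap. So the fitted values of Sesn1 and Txnip were positive and that of Pik3ip1 negative in the same cells, and none passed the test.

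Foxo1 was 0.48 ± 0.318 above GFPko (limma adjusted p = 0.424) and 0.30 above CD25pos (adjusted p = 0.650), and only the latter groups did not overlap. Foxo3 differed by 0.19 ± 0.181 (adjusted p = 0.576) and -0.015 (adjusted p = 0.970), and Tsc22d3 by 0.091 ± 0.474 (adjusted p = 0.919) and 0.34 (adjusted p = 0.738), all with overlap. For Ddit4 the fitted difference says little: GFPfoxp3 minus GFPko was 0.43 ± 0.955 (limma adjusted p = 0.809), made of -0.59 untreated and 1.45 after IL-2. Its GFPko minus CD25pos difference was 1.55 untreated and -2.36 after IL-2. Between those last 2 populations none of the 7 separated by its brightest probe set, and the limma adjusted p values ran from 0.561 to 0.974. The signs for Tsc22d3 (GFPfoxp3 against GFPko), Foxo3 and Ddit4 (GFPfoxp3 against CD25pos) and Txnip (GFPko against CD25pos, -0.043) turned under at least 1 other setting of the processing.

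**Figure D4:**
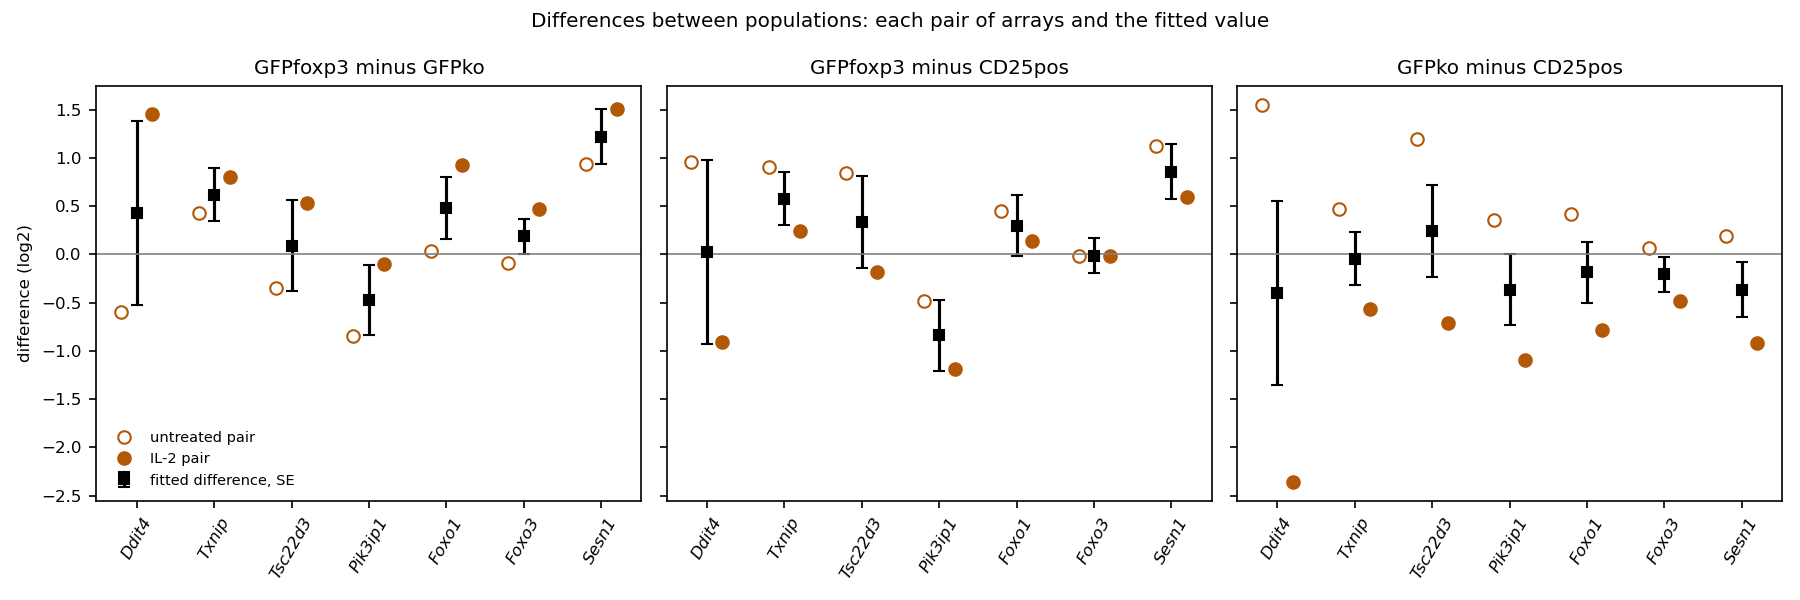
Difference in log2 expression between populations for the 7 genes, as the untreated pair of arrays (open circle), the IL-2 pair (filled circle) and the fitted difference with its standard error (black square and bar). Sesn1 in the first panel has both pairs well above 0, at 0.93 and 1.51, and the last panel shows every open circle above 0 and every filled one below.

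Genes from the marker lists of other cell types also differed between these populations. Klrd1, Eomes, Nkg7 and Klrk1 were lower in GFPfoxp3 than in CD25pos by -6.05 to -2.24, and in GFPko by -5.38 to -2.20 (limma adjusted p from 0.00517 to 0.0191). Cd8a and Cd8b1 of that list did not follow. Cd8a was flat, at 3.13 to 3.21 on these 6 arrays. Cd8b1 read 4.47 and 4.48 in CD25pos, 4.86 and 5.53 in GFPko and 4.26 and 4.41 in GFPfoxp3, without and with IL-2. Cd74, Ighm and Cd79b were 3.11, 2.03 and 1.65 higher in GFPfoxp3 than in GFPko (limma adjusted p from 0.0116 to 0.0122). In the same list H2-Aa went the other way, at 3.69 and 4.02 in GFPfoxp3 against 5.07 and 5.60 in GFPko without and with IL-2. The B cell markers Cd79a and Pax5 were below the array median on all 10 arrays. B cell markers (7 of 8) averaged 4.32 to 5.47 on the sorted arrays and 6.12 to 6.44 on the vector arrays. Their part in the differences of the 7 genes was not tested.

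Against CD25neg cells, which were not treated, the differences come from single arrays. In CD25pos cells 6 of the 7 genes were lower, and Tsc22d3 passed 2-fold, at -1.08 or 2.12-fold lower, where 7.25% of all genes passed in either direction. Foxo3 was the exception at 0.29. In GFPko none passed 2-fold (6.73% of all genes), and Ddit4 came nearest, at 0.98 higher. In GFPfoxp3 none passed either (10.9% of all genes), with Pik3ip1 at -0.95, Sesn1 at 0.92 and Txnip at 0.64. A second bright Sesn1 probe set went the other way, at 10.87 in GFPfoxp3 and 11.02 in CD25neg.

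The transduced cells stood apart for Tsc22d3, Pik3ip1 and Txnip. Their 3 vector arrays were below all 7 sorted arrays for these 3 of the 7 genes, as for 25.2% of all genes. The empty vector array was 14.4-fold below GFPfoxp3 for Tsc22d3 (-3.85), 11.5-fold for Pik3ip1 (-3.52), 3.92-fold for Txnip (-1.97) and 2.35-fold for Sesn1 (-1.24), so 4 of 7 were at least 2-fold lower where 12.3% of all genes were. Second probe sets of Tsc22d3 (5.72 to 6.29 with vectors, 8.10 to 9.17 sorted) and Pik3ip1 (2.69 to 3.28 with vectors, 6.13 to 7.85 sorted) showed the same gap, but the third of Tsc22d3, which is dim, did not (3.33 to 3.49 with vectors, 3.30 to 4.28 sorted). By their brightest probe sets Foxo1, Ddit4 and Sesn1 lay within the range of the sorted arrays, and Foxo3 reached 9.14 against 9.10 in them. Their dimmer probe sets did not all do so. A Foxo1 probe set read 7.07 to 7.77 with vectors against 8.69 to 10.02 sorted. For Foxo3 another read 5.52 to 6.23 against 6.68 to 7.37, while a Sesn1 probe set was higher with vectors, at 6.83 to 7.67 against 5.02 to 6.58. Of the 16 usable probe sets the vector arrays were below all sorted arrays in 7 and above them in 1. The 3' minus 5' signal of Actb was 5.87 to 6.38 on the vector arrays against 2.70 to 3.80 on the sorted ones. Culture, transduction, transfer, the sort and that RNA difference cannot be told apart on these arrays.

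Among the vector arrays the 7 genes differed little. None passed 2-fold between the array labelled MigR1_PDE3B and the empty vector (5.44% of all genes), between the mutant and the empty vector (2.29%), or between PDE3B and mutant (3.04%). Pik3ip1 differed most, 0.50 above the empty vector and 0.55 above the mutant on the array labelled MigR1_PDE3B. Its second probe set, near the array medians there, read 2.69 (empty), 3.06 (PDE3B) and 3.28 (mutant). The sign against the mutant thus did not hold on it. Relative to the empty vector, Txnip was -0.43 with PDE3B, and Foxo3 was 0.38 higher with PDE3B and 0.40 with the mutant. Pde3b itself read 7.43 on the empty vector array, 6.91 on the array labelled MigR1_PDE3B and 7.54 with the mutant. Whether its probes cover the transduced sequence is not known here, so it does not check those labels.

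Other genes of these pathways, 104 in 8 lists, were read in the same fit. Called genes numbered 13 for GFPfoxp3 against GFPko, 16 for GFPfoxp3 against CD25pos and 3 for GFPko against CD25pos, where 7.47%, 8.73% and 3.48% of all genes were called. The IL-2 term called 0 of the 104 in limma, with 21 at an unadjusted p under 0.05 (5 entries of the lists higher, 16 lower) where 10.6% of all genes were. The lists overlap, and they were chosen with earlier results known.

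In the FOXO target list 21 of 22 genes were measured. Relative to GFPko, GFPfoxp3 had 3 called higher and 2 called lower, with a list median of 0.25 beside 0.0080 over all genes. They include Gabarapl1, an autophagy protein, at 1.51 ± 0.190 (limma adjusted p = 0.0275), Ctla4, an inhibitory receptor, at 1.37 ± 0.157 (adjusted p = 0.0233), and the recirculation receptors Ccr7 at -1.12 and S1pr1 at -1.11. Against CD25pos 4 were higher and 1 lower, among them Ctla4 at 2.87 and Gadd45a, a growth arrest gene, at 1.55. Ctla4 (1.50) and S1pr1 (1.16) were also higher in GFPko than in CD25pos, the 2 called there. Klf2, another recirculation gene of the list, read 10.56 and 10.41 in GFPfoxp3 and 10.37 and 10.98 in GFPko without and with IL-2. After IL-2 the list's median change was -0.13 in GFPko, -0.093 in GFPfoxp3 and 0.047 in CD25pos.

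In the PI3K and AKT list (14 of 16 measured) the GFPfoxp3 and GFPko comparison called 1 gene higher and 2 lower. Phlpp1, a phosphatase that removes an activating phosphate from AKT, was 2.60 ± 0.113 higher (limma adjusted p = 0.0052) and also 2.17 above CD25pos. Pdpk1, the kinase that activates AKT, was at -1.25, and Pik3r5, a PI3K gamma regulatory subunit, at -1.11 against GFPko and -1.02 against CD25pos. Inpp5d, the SHIP1 phosphatase, was 0.56 above CD25pos (adjusted p = 0.0495).

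Of the mTORC1 list (23 of 24 measured) 1 gene was called in each comparison with GFPfoxp3. Rragd, a Rag GTPase that recruits mTORC1 to lysosomes, was 3.26 ± 0.450 above CD25pos (limma adjusted p = 0.0294), and after IL-2 it was 2.39 higher in GFPko, from 6.73 to 9.12. Tbc1d7, a subunit of the TSC complex, was 1.24 above GFPko, but its levels of 2.20 to 3.79 on these 6 arrays lie near the array medians. In the nutrient uptake list (10 of 11 measured) Slc2a3, a glucose transporter, was 2.30 above GFPko and 1.41 above CD25pos, while the amino acid transporters Slc7a5 (-1.29), Slc7a1 (-1.10) and Slc38a1 (-0.72) were below CD25pos.

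In the TXNIP family list (9 of 10 measured) the arrestins Arrdc4 and Arrdc3 were 2.13 ± 0.296 and 0.96 ± 0.119 above GFPko (limma adjusted p = 0.0333 and 0.0269), and Arrdc4 was 2.83 above CD25pos. Among 10 glucocorticoid and TSC22 genes Dusp1, a phosphatase of MAP kinases, was 1.20 above CD25pos, and Fkbp5, a glucocorticoid receptor cochaperone, was at -0.66, and at -0.85 in GFPko. The sestrin and p53 list (9 of 10 measured) had 1 call, Ccng1 at 0.68 above GFPko. The quiescence list (10 of 12 measured) had 0 calls in limma in any comparison, with 4, 2 and 1 genes at an unadjusted p under 0.05 for the comparisons as ordered above.

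After IL-2, 8 of the 104 pathway genes differed at least 2-fold between the GFPko arrays, as did 4.92% of all genes. Bcl6 (-1.80), the pro-apoptotic Bcl2l11 (-1.68), Tsc22d1 (-1.23) and the antiproliferative Tob1 (-1.19) and Tob2 (-1.01) were lower, and Rragd (2.39), Txnrd1 (1.31), which reduces thioredoxin, and Nprl3 (1.18) were higher. In CD25pos cells Arrdc4 (-1.33) and Bcl6 (-1.15) were lower, 2 of 104 beside 1.35% of all genes. Arrdc4 fell there from 4.42 to 3.10, where the treated array's median was 3.06. In GFPfoxp3 cells Pik3cb (1.28) and Sgk1 (1.24) were higher, 2 of 104 beside 1.95%. Pik3cb read 2.84 untreated, below that array's median of 3.05, and 4.11 after IL-2, so its change carries little. Of the 21 FOXO targets, Bcl6 and Bcl2l11 were the 2 at least 2-fold lower in GFPko. Il7r (-0.94), Ccng2 (-0.85), Fbxo32 (-0.72), Insr (-0.66) and Sod2 (-0.63) were the next largest falls. Klf2 (0.61), Ccr7 (0.44), Bnip3 (0.41) and Cited2 (0.39) were the largest rises, and the list median was -0.13.

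Genes whose profile over the 10 arrays was most like each member's were named from those with an SD of at least 0.5. Cxcr4, a chemokine receptor, led for Ddit4 (Pearson r = 0.858, and 0.869 over the 7 sorted arrays) and came second for Foxo1 (0.926), for which Tent5c led (0.972). Klf3, with 0.903 for Foxo1, reached 0.985 over the 7 sorted arrays. Mdm2, Copb1 and Msh6 were closest to Txnip (0.978 to 0.982), Otulinl, Acss1 and Psg28 to Tsc22d3 (0.987 to 0.998) and Cnot6l, Snx30 and Bach2 to Pik3ip1 (0.984 to 0.986). These 3 members are also those with a gap between vector and sorted arrays. Over the 7 sorted arrays the same 9 genes had lower values, from 0.794 (Cnot6l with Pik3ip1) to 0.968 (Otulinl with Tsc22d3). Rabgef1 led for Foxo3 (0.873) and Slc35f6 for Sesn1 (0.905). Among the members themselves, over the 7 sorted arrays, Txnip and Sesn1 had 0.882 and Ddit4 and Tsc22d3 0.839, while Pik3ip1 had -0.14 with Txnip and -0.0080 with Sesn1. The arrays share normalization and, in part, mice, so these values are descriptions.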

How the data were processed

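The 7 genes and the pathway lists were chosen with earlier results of these data known. Per the labels, cells were sorted by flow cytometry and their RNA was amplified in 2 rounds, which favours 3' ends. The values of 45101 probe sets on 10 arrays are on a log2 scale, as read from their range, and the authors normalized all arrays together, per the design text. For how they summarised and normalized the probes, the method was not given in the sources used here.

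Probe sets with 1 gene symbol (34958, with 932 naming several and 9211 none) were named through the platform table and updated by gene identifier (34754 matched). The brightest probe set stood for a gene, and 11939 of 18194 genes reached the median of all probe sets on at least 1 array. Differences between populations came from limma 3.58.1 in R 4.3.3 over 6 arrays (population plus IL-2, 2 residual degrees of freedom), with Benjamini-Hochberg adjustment over all genes and a threshold of 0.05. The fit was tested on simulated data with independent noise and the same IL-2 response in every population. That test does not cover genes whose IL-2 changes differ between populations, as those of the 7 do. The IL-2 term of that fit sets 3 arrays against 3 and was read for genes other than the 7. The remaining comparisons have 1 array a side and no test. Nothing says how many animals were pooled, so p-values measure only the spread between these arrays. Named genes are the 7, up to 4 called genes per list and comparison by size, and the 3 most similar profiles.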

Additional observations from a re-analysis of the deposited data

Results flagged for a closer look

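For 5 of the 7 genes the change after IL-2 had opposite signs in different populations and differed by at least 2-fold. These 5 were lower in both GFP+ populations and higher in CD25pos, as were 11.5% of all genes. How many of all genes also differed 2-fold was not counted, and the 7 were chosen with these changes known. The differences were not tested, since each change is 1 array against 1. Ddit4 differed by -3.907 between GFPko and CD25pos cells (-2.747 against 1.161) and by -1.863 between GFPfoxp3 and CD25pos. Tsc22d3 differed by -1.908 between GFPko and CD25pos and by -1.027 between GFPfoxp3 and CD25pos. For GFPko minus CD25pos, Pik3ip1 gave -1.457, Foxo1 -1.201 and Txnip -1.039. The Foxo1 change in CD25pos was only 0.037, so its sign there carries little.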

How the results depend on the processing

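The call that none of the 7 genes differed between populations held under 21 alternative fits, whose errors likewise rest on the disagreement about IL-2. In 3 more, with all 10 arrays, the estimates and p-values are the same by construction. Over the 4 settings that can move an estimate, 75 of 81 recomputed differences kept their sign. The 6 others had been within 0.091 of 0: Tsc22d3 between GFPfoxp3 and GFPko became -0.06083 with arrays centred on their medians and -0.009657 with the mean of all probe sets, Ddit4 between GFPfoxp3 and CD25pos -0.0006425 with quantile normalization, Foxo3 there 0.1466 with the mean of probe sets and 0.3084 without probe sets that may cross-match, and Txnip between GFPko and CD25pos 0.0987 with centring. Of 81 IL-2 changes of single genes 9 moved by more than the fitted spread, and without probe sets that may cross-match Sesn1 in GFPfoxp3 turned to 0.038 and Foxo3 there came to -0.019. That setting also leaves out the _a_at class, so it drops Tsc22d3, and it gave median changes of -0.8472 in GFPko and -0.2116 in GFPfoxp3. Counts over all genes depended far more on the setting. Centring moved the median difference to -0.143 for GFPfoxp3 minus GFPko and 0.127 for GFPko minus CD25pos, and the calls from 892 to 1373 (51.4% higher in place of 72.9%) and from 416 to 858 (51.6% in place of 35.8%). Without the filter on dim genes there were 382, 609 (from 1042, GFPfoxp3 minus CD25pos) and 33 calls, and without the uninvolved population 408 and, for GFPko minus CD25pos, 0 (limma, 1908 at an unadjusted p under 0.05). The IL-2 term went from 28 calls to 121 with centring and to 0 with quantile normalization, no filter, no cross-matching probe sets, or intensity trend and robust variance (limma, 1267, 1521, 1040 and 1124 at an unadjusted p under 0.05). The cause was not tested. No pairing by animal was possible because every array has the same replicate number, which pairs nothing. The fit itself pairs arrays by population. A single array per group limits every value here.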
